A study of Mus musculus with 5 samples.

Results

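The aminoacyl-tRNA synthetases were examined in the atrioventricular canal (AVC) of mouse embryos with and without Sox9 in the Tie2-Cre lineage. The members are 36 genes taken by symbol, of which 20 encode cytosolic enzymes and 16, with symbols that end in 2, encode mitochondrial enzymes. All 36 are in the expression table, each with 1 row among its 14697 transcripts, and the rule that names them uses no measured value. The study mapped SOX9 binding by ChIP-seq in AVC and limb and profiled AVC RNA, and only the RNA is used here. AVCs were taken at embryonic day 12.5 from C57BL/6 embryos. The control group, called WT, was Sox9fl/fl:+/+, and the Sox9 cKO group was Sox9fl/fl:Tie2-Cre/+. Both groups carry floxed Sox9 alleles, so Cre itself is a further difference between them, beside the deletion. The Tie2 promoter drives Cre in endothelium, in cushion mesenchyme derived from it and in blood cells, but not in myocardium. Embryos were genotyped, their degree of deletion was checked, and AVCs were pooled before 2 libraries per genotype were made. The deposited table merges these libraries into 1 value per genotype, so the spread between replicates and the read depth are unknown and no p-value can be given.

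Aminoacyl-tRNA synthetases join each amino acid to its tRNA and so supply the ribosome with charged tRNAs. Cytosolic and mitochondrial translation mostly use separate nuclear-encoded enzymes, but Gars and Kars each encode the enzyme of both compartments. Mitochondria of mammals make glutaminyl-tRNA indirectly, by charging the tRNA with glutamate and then amidating it. Several cytosolic enzymes are held together with scaffold proteins in the multisynthetase complex. When the initiation factor eIF2 is phosphorylated under stress or amino acid shortage, the transcription factor ATF4 is made, and many cytosolic synthetase genes are known ATF4 targets. Heart muscle, in which mitochondria are abundant, depends on the mitochondrial enzymes, and inherited defects of Aars2 are known for causing cardiomyopathy.

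Sox9 stood at 36.7 nFPKM in WT and 14.7 nFPKM in cKO, where nFPKM is the authors' further normalized FPKM, a fragment number scaled for transcript length and library size. Differences are given as relative log2 ratios, the log2 of (cKO + 1)/(WT + 1) in nFPKM minus the median of this value over the 13793 transcripts that reached 1 nFPKM in 1 or both genotypes. That median was -0.11. The middle 50% of these transcripts had relative log2 ratios from -0.15 to 0.15, and the middle 90% ran from -0.45 to 0.49. Marker genes of the labelled cell types were present, among them Postn of mesenchyme (973 nFPKM in WT), Cdh5 of endothelium (145 nFPKM) and Tnnt2 of myocardium (4047 nFPKM). The pools differed in several markers. All 8 mesenchyme markers, Sox9 among them, were lower in cKO relative to the median, with a summed level of 2702 nFPKM in WT and 1849 nFPKM in cKO. All 5 measured erythroid markers were higher (35700 and 82198 nFPKM summed), as were all 6 endothelial markers (606 and 717 nFPKM summed). Of 4 epicardial markers, 3 were higher (187 and 262 nFPKM summed over the 4). Krt19 was at 52.0 and 107 nFPKM, Upk3b at 63.1 and 83.9 nFPKM and Wt1 at 14.5 and 23.4 nFPKM. Tbx18 was lower, at 57.7 nFPKM in WT and 47.6 nFPKM in cKO. The 6 myocardial markers were split, with 3 above the median (25733 and 27314 nFPKM summed), as were the 4 macrophage markers, with 2 above it (104 and 88.5 nFPKM summed). No listed marker in the table was at 0, and the part of cell makeup in the results below was not tested.

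The synthetases differed little between the genotypes. None of the 36 reached a 1.5-fold difference relative to the all-transcript median in either direction, a size that 3.44% of all 13793 transcripts reached in the higher direction and 2.82% in the lower. Relative log2 ratios ran from -0.29 for Cars2 to 0.37 for Lars2, so all 36 lay in the middle 90% of all transcripts, and 21 lay in the middle 50%. The spread of the 36 ratios (SD 0.17 across genes) was narrower than that of all transcripts (SD 0.33), which also include transcripts of lower level, where ratios spread more. Among the 10018 transcripts that reached 10 nFPKM in 1 or both genotypes, a level that all 36 synthetases had in both genotypes, 2.28% were 1.5-fold higher and 1.61% were 1.5-fold lower. A count of 0 of 36 is near this background. The middle 50% of these 10018 transcripts was narrower than that of all transcripts, from -0.13 to 0.14. A smaller fold of 1.2, chosen after the values were seen, was reached by Iars and Lars2 in the higher direction and by Cars2 and Mars2 in the lower, against 14.4% and 13.1% of all transcripts. These 1.2-fold shares include the transcripts of lower level and were not computed for the 10018 alone. In these pooled samples, a different number of cells of a type and a different RNA level per cell cannot be told apart.

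**Figure D1:**
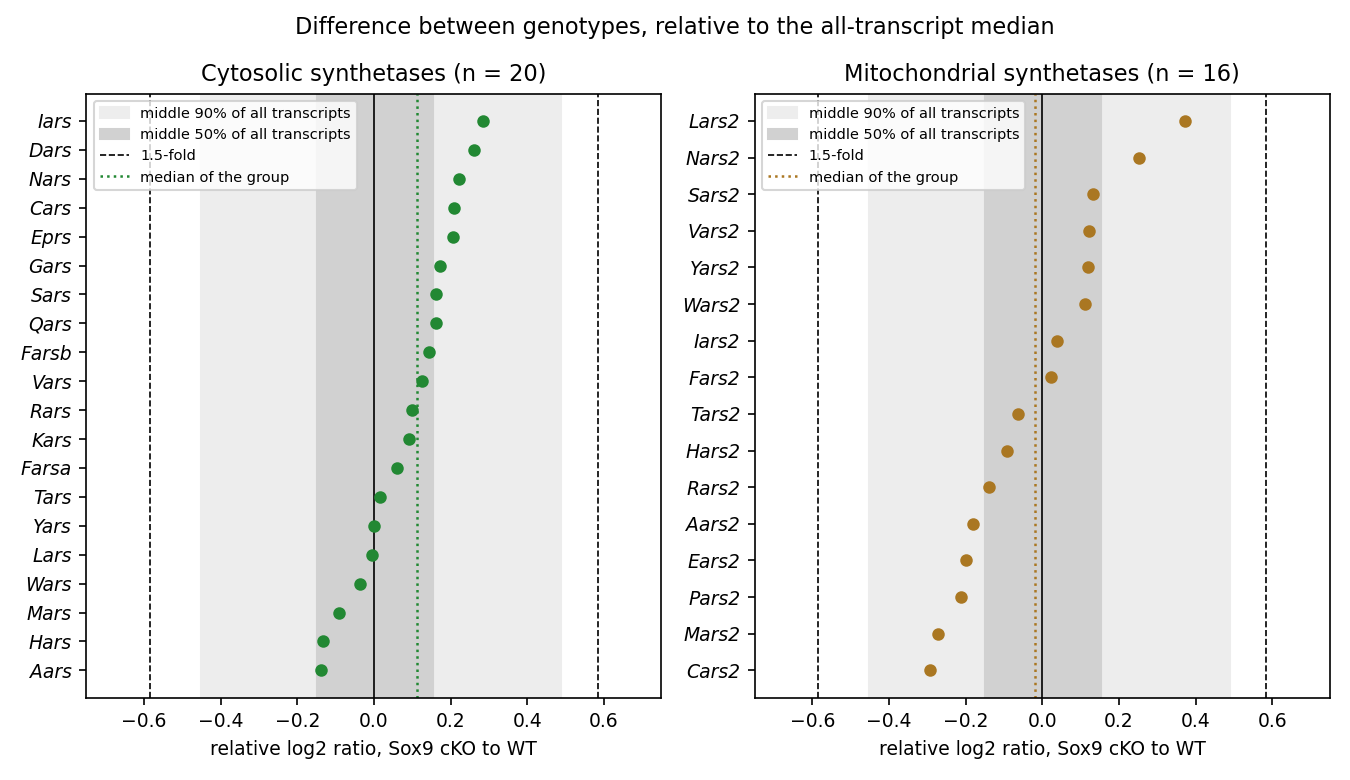
Relative log2 ratio of Sox9 cKO to WT for each synthetase (1 point per gene, 1 merged value per genotype), with the middle 50% and 90% of all transcripts shaded. All points lie between the dashed 1.5-fold lines, the median of the cytosolic enzymes is at 0.11 and that of the mitochondrial enzymes at -0.019.

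Cytosolic enzymes were the more abundant set. Per length, their median level was 75.4 nFPKM in WT and 70.1 nFPKM in cKO, against 24.1 and 22.2 nFPKM for all transcripts. In WT, 19 of the 20 stood above the all-transcript median. Gars, which charges glycine in both compartments, was the most abundant, with 220 nFPKM in WT and 230 nFPKM in cKO. Cars, for cysteine, was the least abundant (18.1 and 19.5 nFPKM) and was the only one below the all-transcript median. Together the 20 transcripts summed to 1803 nFPKM in WT and 1813 nFPKM in cKO.

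The mitochondrial enzymes had a median level of 23.4 nFPKM in WT and 19.5 nFPKM in cKO, and 7 of 16 stood above the all-transcript median in WT. Their levels spread more widely than those of the cytosolic enzymes. Nars2, for asparagine, was the least abundant in WT (10.1 nFPKM, and 11.3 nFPKM in cKO). Lars2, for leucine, was the most abundant of all 36, with 384 nFPKM in WT and 461 nFPKM in cKO. It alone made up 47.1% of the summed level of the 16 mitochondrial enzymes in WT and 54.1% in cKO.

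**Figure D2:**
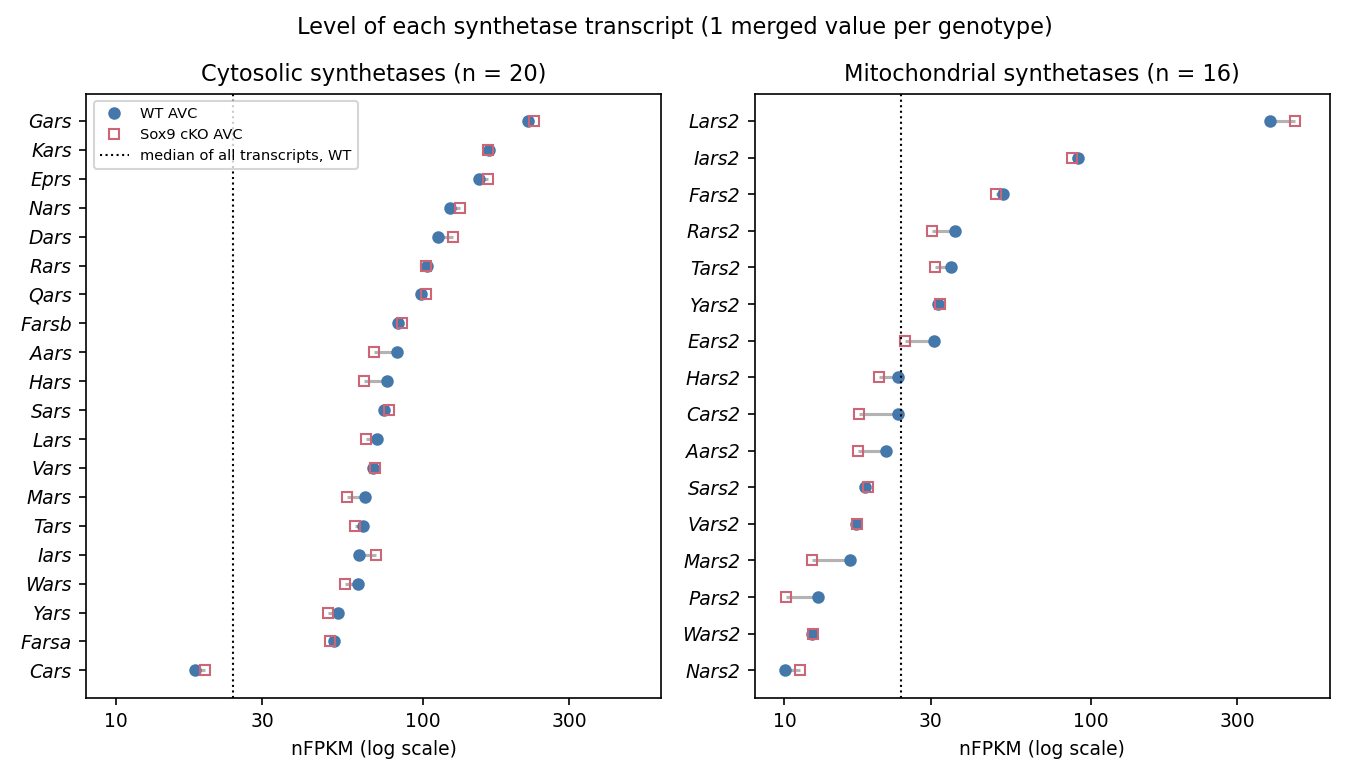
Level in nFPKM (log axis) of each synthetase transcript in WT (filled circles) and Sox9 cKO (open squares), ordered by the WT level, with the WT median of all transcripts as a dotted line. Lars2 stands highest at 384 and 461 nFPKM, and 19 cytosolic but 7 mitochondrial enzymes lie to the right of the dotted line in WT.

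Within the multisynthetase complex, 6 of 8 enzymes stood above the all-transcript median, which 50% of all transcripts do by definition, and their median relative log2 ratio was 0.13. Iars, for isoleucine, was at 62.0 nFPKM in WT and 70.4 nFPKM in cKO, a relative log2 ratio of 0.29 and the highest of the cytosolic enzymes. Dars, for aspartate, followed with 112 and 125 nFPKM (0.26). Eprs, a fused enzyme for glutamate and proline, stood at 152 and 163 nFPKM (0.21). These 3 enzymes were the only ones of the complex, besides Qars, whose ratio lay above the middle 50% of all transcripts. Qars, for glutamine, was at 98.9 and 103 nFPKM (0.16). Rars, for arginine (103 and 102 nFPKM, 0.098), and Kars, for lysine (165 and 163 nFPKM, 0.093), were nearly equal in both genotypes before centring. The remaining enzymes of the complex, Lars for leucine (70.7 and 65.4 nFPKM, -0.0050) and Mars for methionine (64.8 and 56.4 nFPKM, -0.090), stood at or under the all-transcript median. The scaffold proteins of the complex had similar ratios, with Aimp1 at 120 and 129 nFPKM (0.21), Aimp2 at 73.0 and 75.2 nFPKM (0.15) and Eef1e1 at 49.5 and 46.7 nFPKM (0.021).

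The 12 cytosolic enzymes outside the complex had a median relative log2 ratio of 0.093, with 8 above the all-transcript median. The highest was Nars, for asparagine, at 122 nFPKM in WT and 133 nFPKM in cKO (0.22), followed by Cars (0.21) and Gars (0.17). Sars, for serine, was at 74.5 and 77.6 nFPKM (0.16). Phenylalanyl-tRNA synthetase is built of 2 kinds of subunit, and their ratios were 0.060 for the catalytic subunit gene Farsa (51.4 and 49.8 nFPKM) and 0.14 for Farsb (83.2 and 85.4 nFPKM). Vars, for valine, stood at 68.8 and 69.8 nFPKM (0.13) and Tars, for threonine, at 64.0 and 60.2 nFPKM (0.017). Yars, for tyrosine, was at 52.8 and 49.0 nFPKM (-0.00046), on the all-transcript median. Lower than that median were Wars, for tryptophan (61.7 and 55.8 nFPKM, -0.037), Hars, for histidine (76.2 and 64.5 nFPKM, -0.13), and Aars, for alanine (82.4 and 69.4 nFPKM, -0.14). None of these 3 lay below the middle 50% of all transcripts. Among transcripts that reached 10 nFPKM in 1 or both genotypes, the middle 50% began at -0.130, and Hars (-0.132) and Aars (-0.138) lay just below it. Over all 20 cytosolic enzymes, 14 stood above and 6 below the all-transcript median, and the median of their ratios was 0.11. Without centring, 10 were higher and 10 lower in cKO and their median log2 ratio was 0.0064. In nFPKM, the excess on the higher side thus holds only relative to the all-transcript median. The authors' deposited log2 fold change had a median of -0.0043 over the same 13793 transcripts, so it was close to centred as deposited.

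Mitochondrial enzymes were split evenly, with 8 above and 8 below the all-transcript median and a median relative log2 ratio of -0.019. Without centring, 6 were higher and 10 lower in cKO. The lower end was held by Cars2, for cysteine, at 23.4 nFPKM in WT and 17.5 nFPKM in cKO (-0.29), and by Mars2, for methionine, at 16.3 and 12.3 nFPKM (-0.27). Pars2, for proline, stood at 12.8 and 10.1 nFPKM (-0.21). Ears2, which charges glutamate onto the tRNAs of glutamate and glutamine, was at 30.8 and 24.7 nFPKM (-0.20). Aars2, for alanine, was at 21.4 and 17.4 nFPKM (-0.18). These 5 lay below the middle 50% of all transcripts. Less far down were Rars2 (36.01 and 30.2 nFPKM, -0.14), Hars2 (23.5 and 20.3 nFPKM, -0.093) and Tars2 (34.8 and 30.9 nFPKM, -0.062). Near the median were Fars2 (51.7 and 48.8 nFPKM, 0.024) and Iars2 (90.9 and 86.7 nFPKM, 0.039), the mitochondrial enzymes next in level to Lars2. A group of 4 enzymes had almost the same ratio, namely Wars2 (12.3 and 12.4 nFPKM, 0.11), Yars2 (31.7 and 32.1 nFPKM, 0.12), Vars2 (17.1 and 17.3 nFPKM, 0.12) and Sars2 (18.4 and 18.7 nFPKM, 0.13). At the upper end stood Nars2 (0.25) and Lars2 (0.37), the latter at percentile 91.4 of all transcripts.

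The direction of the summed mitochondrial level rested on Lars2. With it, the 16 transcripts summed to 815 nFPKM in WT and 852 nFPKM in cKO, 0.17 on the log2 scale above the all-transcript median. Without it, the other 15 summed to 431 nFPKM in WT and 391 nFPKM in cKO, which is -0.036 relative to that median, and the median of their ratios was -0.062.

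For 13 amino acids, a cytosolic and a mitochondrial enzyme could be set side by side by symbol. The cytosolic transcript was the more abundant in 10 of 13 pairs in WT and in 11 of 13 in cKO, with a median quotient of 3.25 and 3.39. The widest gap was that of Nars over Nars2, 12.1-fold in WT. In the other direction stood Lars, at 0.18 of the level of Lars2 in WT and 0.14 in cKO, and Iars, at 0.68 and 0.81 of the level of Iars2. The Cars and Cars2 pair changed order, with a quotient of 0.78 in WT and 1.12 in cKO, and had the widest gap between ratios in favour of the cytosolic enzyme, 0.50 on the log2 scale. The relative log2 ratio, taken with its sign, was higher for the cytosolic enzyme in 8 pairs and for the mitochondrial enzyme in 5. By absolute size it was larger for the cytosolic enzyme in 4 pairs (Hars, Iars, Sars and Vars) and for the mitochondrial enzyme in 9. Both enzymes stood above the all-transcript median in 4 pairs (Iars, Nars, Sars and Vars), both below in 3 (Aars, Hars and Mars), and the signs were opposite in 6. Across the 13 pairs Pearson's r was 0.23 and Spearman's rho 0.29, given as a description only, since all points share the same merged libraries. Hars and Hars2 are direct neighbours in the RefSeq gene table (GRCm38.p6), and their relative log2 ratios differed by 0.039.

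**Figure D3:**
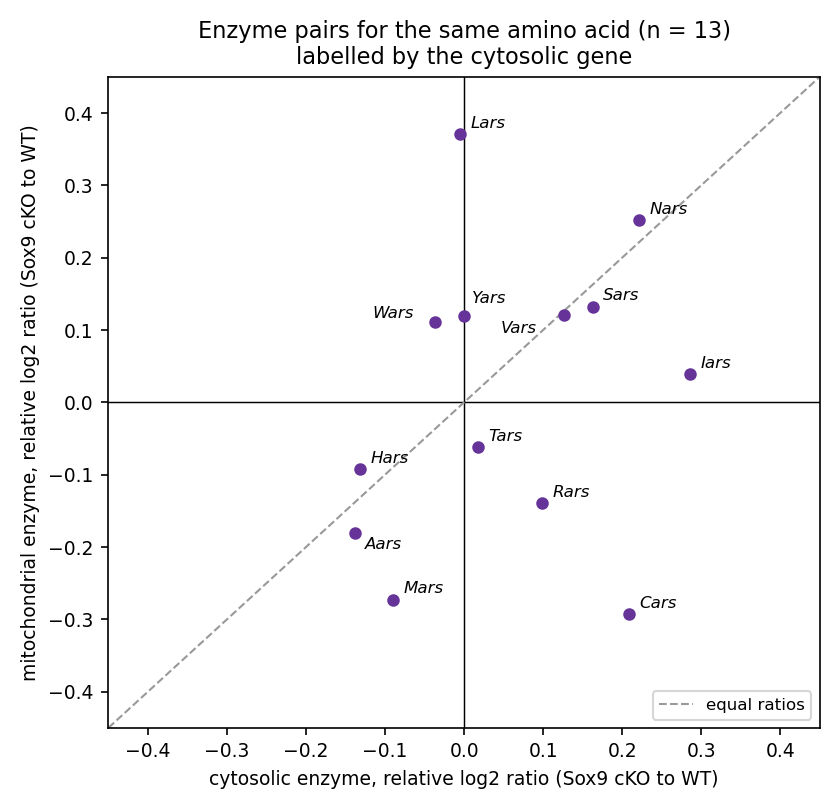
Relative log2 ratio (Sox9 cKO to WT) of the mitochondrial enzyme against that of the cytosolic enzyme for the 13 amino acids with a pair of matching symbols. Points lie in all 4 quadrants, with Cars and Cars2 far below the line of equal ratios and Lars and Lars2 far above it.

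Of the cytosolic enzymes, 12 are commonly listed as ATF4 targets (Aars, Cars, Eprs, Gars, Iars, Lars, Mars, Nars, Sars, Tars, Wars and Yars). Their median relative log2 ratio was 0.090, with 7 of 12 above the all-transcript median. The other 8 (Dars, Farsa, Farsb, Hars, Kars, Qars, Rars and Vars) had a median of 0.11, with 7 of 8 above it. The ATF4-listed enzymes thus stood no higher than the others. Without centring the medians were -0.016 and 0.0064.

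ATF4 binds DNA together with C/EBP proteins at a composite element, here searched as TGATGNAA on both strands. RefSeq promoter windows of GRCm38.p6, from 250 bases before to 50 after a transcript start, were at hand for 26 of the 36 genes, and not for Cars, Hars, Hars2, Lars, Mars, Nars, Pars2, Rars, Vars and Wars. The letters TGATGNAA were found in the windows of 5 of 12 cytosolic genes and of 0 of 14 mitochondrial genes, against 3.97% of all 32851 windows. For each motif searched here, a gene was counted if any of its windows held the letters. The share of all windows counts each window, so these shares are not on the same basis. All 5 are among the 7 ATF4-listed enzymes with a window. The narrower TGATGCAA, contained in TGATGNAA, was found in 4 of the 5 (all but Gars), against 0.895% of all windows. The stretches from 120 bases before to 20 after the start are shown because they carry these letters, which are in capitals, in the strand of the gene. The last of them, Asns for asparagine synthetase, is a well-known ATF4 target and serves for comparison.
Aars, chr8:111033722-111033861, plus strand: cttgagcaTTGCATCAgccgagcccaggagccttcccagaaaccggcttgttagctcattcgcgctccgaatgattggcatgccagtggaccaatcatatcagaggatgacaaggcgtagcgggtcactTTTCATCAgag
Gars, chr6:55037881-55038020, plus strand: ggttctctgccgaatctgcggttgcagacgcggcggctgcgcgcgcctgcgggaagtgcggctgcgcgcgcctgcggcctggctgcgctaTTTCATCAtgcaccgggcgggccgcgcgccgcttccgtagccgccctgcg
Iars, chr13:49682010-49682149, plus strand: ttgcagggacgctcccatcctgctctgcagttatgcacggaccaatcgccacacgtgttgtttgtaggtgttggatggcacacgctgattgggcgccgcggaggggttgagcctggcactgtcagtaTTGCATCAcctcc
Tars, chr15:11399639-11399778, minus strand: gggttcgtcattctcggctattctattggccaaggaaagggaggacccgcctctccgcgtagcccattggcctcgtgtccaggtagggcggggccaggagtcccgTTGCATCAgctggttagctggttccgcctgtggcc
Yars, chr4:129189783-129189922, plus strand: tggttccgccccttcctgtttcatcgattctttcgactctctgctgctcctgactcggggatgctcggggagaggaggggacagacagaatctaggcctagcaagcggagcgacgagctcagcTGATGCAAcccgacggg
Asns, chr6:7693190-7693329, minus strand: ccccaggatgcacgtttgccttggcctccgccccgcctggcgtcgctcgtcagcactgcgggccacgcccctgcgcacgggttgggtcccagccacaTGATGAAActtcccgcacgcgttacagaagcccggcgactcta

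A match lay close to the start in all 5 synthetase genes. It began at base -30 in Gars, -15 in Tars, 4 in Yars, 8 in Iars and 10 in Aars, counted from the start as base 1. Aars had a further match at -112, and Asns had 1 at -23. The 5 synthetases with a match had relative log2 ratios of -0.14 (Aars), 0.17 (Gars), 0.29 (Iars), 0.017 (Tars) and -0.00046 (Yars), with a median of 0.017. The 7 cytosolic genes with a window but no match had a median of 0.16 and ranged from 0.060 to 0.26. A match in the window therefore did not go with a higher ratio among these 12 genes. A further motif, the E-box CACGTG, which MYC and related factors bind, was searched after the values were seen. It was in the windows of 4 of 12 cytosolic genes (Aars, Farsb, Iars and Tars) and 1 of 14 mitochondrial genes (Ears2), against 7.15% of all windows. A match is a run of letters and not a measured binding site.

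Some other known ATF4 targets stood higher than any synthetase in the same values, and others did not. The transcript of Atf4 itself was at 147 nFPKM in WT and 210 nFPKM in cKO, a relative log2 ratio of 0.62. Of 15 listed stress genes that passed the filter, 6 were at least 1.5-fold higher, a size that 3.44% of all transcripts reached, and the list median was 0.32. They were Ddit3 (26.2 and 154 nFPKM, 2.62), Stc2 (6.21 and 20.7 nFPKM, 1.69), Ddit4 (0.90), Chac1 (0.78), Ppp1r15a (0.72) and Atf4. Chac1 passed the filter only through its cKO value of 1.00 nFPKM. These genes were in view from earlier results when the list was made, so their count is not independent evidence. In the same list, Vldlr (0.38), Trib3 (0.32), Eif4ebp1 (0.25), Sesn2 (0.14) and Nupr1 (0.13) were short of 1.5-fold. Also short of it were Atf3 (0.084), Atf5 (0.082), Cebpg (-0.0057) and Jdp2 (-0.16). Of the genes short of it, only Vldlr stood above Lars2, the highest synthetase. They were looked at after their values were seen. Of 17 listed genes for amino acid synthesis and transport that passed, Asns alone reached 1.5-fold (35.4 and 49.7 nFPKM, 0.58), and the list median was 0.16. Asns lay on that line, and 0 of the listed genes reached it in 5 of 8 alternatives: a pseudocount of 5, no filter, the filter of 10 nFPKM, no centring and equal sums outside globins. The glutamine transporter Slc1a5 stood at 0.51, the cationic amino acid transporter Slc7a1 at 0.49, the serine enzyme Shmt2 at 0.47 and the transporter subunit Slc3a2 at 0.44. The alanine aminotransferase gene Gpt2 was lower (-0.26). Asns and Nars both handle asparagine, and their ratios were 0.58 and 0.22. Of the kinases that phosphorylate eIF2, Eif2ak1, Eif2ak2, Eif2ak3 and Eif2ak4 had ratios between -0.016 and 0.13. All 16 genes of the unfolded protein response of the endoplasmic reticulum were above the all-transcript median, against 50% of all transcripts (list median 0.25). Past 1.5-fold were Derl3 (2.58), Herpud1 (0.68) and Sdf2l1 (0.66), against 3.44% of all transcripts. Without centring only Derl3 was past it, and with a pseudocount of 5 Sdf2l1 was not. The chaperones Hsp90b1 (0.39) and Hspa5 (0.31) and the transcription factor gene Xbp1 (0.30) came next by ratio. Derl3 stood at 1.03 nFPKM in WT, near the filter line of 1 nFPKM, and at 10.2 nFPKM in cKO. The list of these 16 genes was also made with earlier results known, so its counts are not independent evidence.

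**Figure D4:**
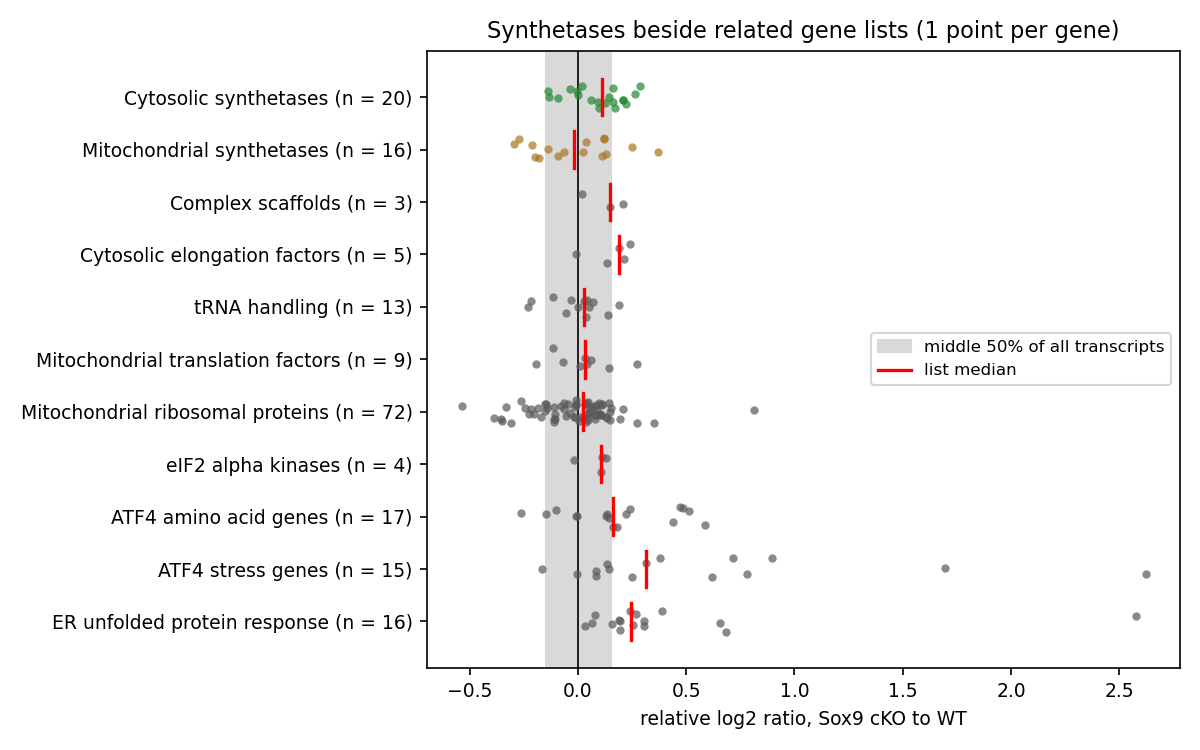
Relative log2 ratio (Sox9 cKO to WT) of each gene of the synthetase groups and of related lists, with list medians in red and the middle 50% of all transcripts shaded. The synthetases stay between -0.29 and 0.37, while ATF4 stress genes run from -0.16 to 2.62.

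Translation factors and mitochondrial ribosomal proteins had medians somewhat above that of the synthetases of their compartment, which was 0.11 in the cytosol and -0.019 in mitochondria. The 5 cytosolic elongation factor genes had a median relative log2 ratio of 0.19, with Eef2 at 1482 and 1628 nFPKM (0.24), Eef1a1 at 3734 and 4021 nFPKM (0.21), Eef1b2 at 0.19, Eef1g at 0.14 and Eef1d at -0.0075. In mitochondria, 9 translation factor genes had a median of 0.031, from -0.19 for Mtif3 to 0.27 for Mrrf. The 72 genes taken as mitochondrial ribosomal proteins had a median of 0.022, with 38 of the 72 above the all-transcript median. They were taken by symbol alone (Mrpl or Mrps and a digit), which does not show that each product is part of the ribosome. Mrps36 was the highest (1.73 and 3.46 nFPKM, 0.82) and Mrpl41 the lowest (28.4 and 17.8 nFPKM, -0.54). A count of 1 of 72 past 1.5-fold higher is near the 3.44% of all transcripts, and Mrps36 did not reach that fold with a pseudocount of 5 and was removed by the filter of 10 nFPKM. Sars2 is a direct neighbour of the ribosomal protein gene Mrps12 in the RefSeq gene table, and Mrps12, looked at after its value was seen, stood at -0.33 beside 0.13 for Sars2. Among 13 genes for tRNA handling the median was 0.028, and Osgep, which takes part in tRNA modification, was the lowest at 21.7 and 17.0 nFPKM (-0.23). Xpot, the exporter of tRNA from the nucleus and another known ATF4 target, was looked at after its value was seen and stood at 36.8 and 34.8 nFPKM (0.028). Of the enzyme that amidates mitochondrial glutamyl-tRNA, the subunit gene Qrsl1 stood at -0.22, near Ears2, which supplies it, and Gatc at 0.19.

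The 2 structural classes of synthetase, which differ in the fold of the catalytic domain, had nearly equal medians. The 18 class I genes had a median relative log2 ratio of 0.069 with 10 above the all-transcript median, and the 17 class II genes one of 0.060 with 11 above it. Eprs joins an enzyme of each class and was counted in neither.

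In the authors' deposited table, the log2 fold change of cKO to WT was 0.29 for Iars, 0.37 for Lars2, -0.30 for Cars2 and -0.28 for Mars2. Taken relative to its own median over the same transcripts, the authors' deposited log2 fold change differed from the relative log2 ratio by at most 0.0090 for any of the 36 synthetases.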

How the data were processed

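RNA from pooled AVCs of WT and Sox9 cKO embryos was sequenced, in 2 libraries per genotype per the labels' protocols. The deposited table gives FPKM per transcript that the authors normalized further (nFPKM) and merged over the duplicates, per the file headers, and the authors' log2 fold change. TopHat2, Cufflinks, edgeR and the build mm9 are named, without roles or versions, in the submitters' processing notes. How nFPKM were normalized is not stated there. Depth is unknown, and merged FPKM give no counts.

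Groups came from the genotype labels. Log2 ratios were computed with a pseudocount of 1 nFPKM, which understates ratios of low genes, for the 13793 of 14697 transcripts that reached 1 nFPKM in 1 or both genotypes, and centred on their median. All 36 synthetases passed. Each genotype has 1 value, so differences were judged by size (1.5-fold) without a test. The naming rule took all members, Sox9, and of each other list all genes or, above 12, the 6 with the largest absolute ratios. The text gives all members and Sox9 but only some of the other genes named by the rule, and marks those outside it. A gene of the lists is not reported here. Members and lists were chosen with earlier results of these data known. Pseudocounts, filters, centring and the authors' fold change were varied. The peak lists were not used, since no mm9 gene positions were used here. Python 3.11.15, numpy 2.4.6, pandas 2.3.3 and matplotlib 3.10.9 were used, and the ratio step was tested on simulated data.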

Additional observations from a re-analysis of the deposited data

How the results depend on the processing

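Under pseudocounts of 0.1 and 5, no filter, a filter of 10 nFPKM, every transcript of a symbol, the authors' deposited log2 fold change centred on its median, and scaling to equal sums outside the globin genes (added after seeing the data), the medians of the cytosolic, mitochondrial, ATF4-listed and other cytosolic synthetases moved by less than 0.1 on the log2 scale and kept their sign. The setting of every transcript could not change these medians, since each synthetase has 1 row. The filter settings could change only the centre, since all 36 synthetases had at least 10 nFPKM in both genotypes. Without centring, the values move by the all-transcript median of -0.11, by construction: the medians were 0.0064 for the cytosolic, -0.12 for the mitochondrial and 0.0064 for the other cytosolic enzymes, and that of the ATF4-listed enzymes changed sign to -0.016. No synthetase reached 1.5-fold under any of these settings. The count past 1.2-fold, 4 as reported, was 1 with a pseudocount of 5, 6 with a pseudocount of 0.1, 6 without centring and 5 with the authors' values, so it depends on these choices. Of the ATF4 stress genes, 6 of 15 reached 1.5-fold as reported, 4 with a pseudocount of 5 (without Atf4 and Chac1), and 5 without centring (without Atf4) or with the filter of 10 nFPKM (without Chac1, not tested there). Globin genes held 4.24% of all nFPKM in WT but 9.65% in cKO, and scaling to equal sums outside them moved each ratio by -0.020. No paired analysis was possible because each genotype has 1 merged value. Leaving out a replicate was not possible for the same reason, and differences of the size seen here cannot be set against a replicate spread.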
